A study of Rattus norvegicus with 6 samples.

Results

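The miR-199a and miR-214 cluster was examined in cultured primary rat sertoli cells, which nurse the germ cells of the testis, with and without 4-nonylphenol (4-NP), an alkylphenol with estrogen-like action. Its members were selected on their names, as every mature row called rno-miR-199a or rno-miR-214 once a final -3p or -5p is removed, which gave 4 arms of the 734 mature miRNA rows in the count table. The names themselves were chosen by someone who had seen the read counts of these arms in both groups, so the contrast between 4-NP and control is given for the members as a description with standard errors or SDs and with no p. The control group (no 4-NP) and the group given 0.5 mM 4-NP had 3 samples each, collected at 24 h. Cells of both groups were isolated from testes of Sprague-Dawley rats aged 5 to 10 days and grown in medium with fetal bovine serum. Such cultures are enriched for sertoli cells and can hold other cells of the testis, and nothing in the labels says whether the 3 samples of a group came from separate animals. The spread between samples may therefore be technical. The mature miRNA reads per sample ranged from 20023200 to 23426742, and levels are given in CPM, the reads on an arm scaled to the same total of mature miRNA reads in each sample.

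A miRNA hairpin is cut by Drosha and Dicer into a short duplex, of which either strand, the 5p arm or the 3p arm, can be loaded into Argonaute and repress mRNAs through its seed, bases 2 to 8. The miR-199a and miR-214 hairpins lie close together and are known to be made from one long non-coding transcript, Dnm3os, which runs opposite to the dynamin gene Dnm3 and is driven by TWIST1 in mesenchymal cells. In such cells the cluster is known for its part in skeletal development and fibrosis. miR-199a-3p is known to repress Met and Mtor, and miR-199a-5p to repress Hif1a and Sirt1.

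All 4 arms were found in the RefSeq sequences of the GRCr8 assembly, which gives 1 gene for each hairpin, Mir199a2 and Mir214, both on the plus strand of chromosome 13 and inside Dnm3, which is on the minus strand. The build behind the deposited counts is not given in the sources used here. The arms are shown because their seeds set what each could bind, with the seed in capitals, together with miR-3120 and the stretch of the Mir214 hairpin that faces it, since their place decides how the counts of miR-214 can be read.
miR-199a-5p: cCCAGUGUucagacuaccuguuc
miR-199a-3p: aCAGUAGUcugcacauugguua
miR-214-5p: aGAGUUGUcaugugucu
miR-214-3p: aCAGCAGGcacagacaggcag
miR-3120: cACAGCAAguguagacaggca
Mir214 hairpin opposite miR-3120: ugccugucuacacuugcugug

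The 2 arms of miR-199a lie at chr13:77116255-77116277 (5p) and chr13:77116294-77116315 (3p), with 16 bases between them. Those of miR-214 lie at chr13:77121656-77121672 (5p) and chr13:77121713-77121733 (3p). None of the 4 seeds is also the seed of another mature name among the 693 of the RefSeq table. The seeds of both 3p arms have the same base at 5 of 7 positions. In human and mouse, miR-199b-3p is known to have the same sequence as miR-199a-3p. The count table has 0 rows named miR-199b, so reads on miR-199a-3p stand for any gene copy with that sequence.

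The annotated 5p arm of miR-214 is 17 bases long, 1 of 7 mature names under 18 bases among the 693, while the RNA cut from the gel was 18 to 30 nt. It also sits off the duplex. In the fold of the 108-base hairpin computed with RNAfold, 2 of its 17 bases paired with the 3p arm, whereas 17 of the 21 bases of the stretch opposite miR-3120 did. Human and mouse miR-214-5p are known to lie at that stretch. Here it lies at chr13:77121672-77121692, shares 1 base with the annotated 5p arm, and is the exact reverse complement of miR-3120, whose gene Mir3120 is annotated on the minus strand over Mir214. No mature name in the RefSeq table holds 15 or more bases of the stretch. Adapters were ligated to each end of the RNA in turn, which keeps its strand, but whether the counting used strand is not given in the sources used here, so reads of this stretch and of miR-3120 cannot be told apart in the table.

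**Figure D1:**
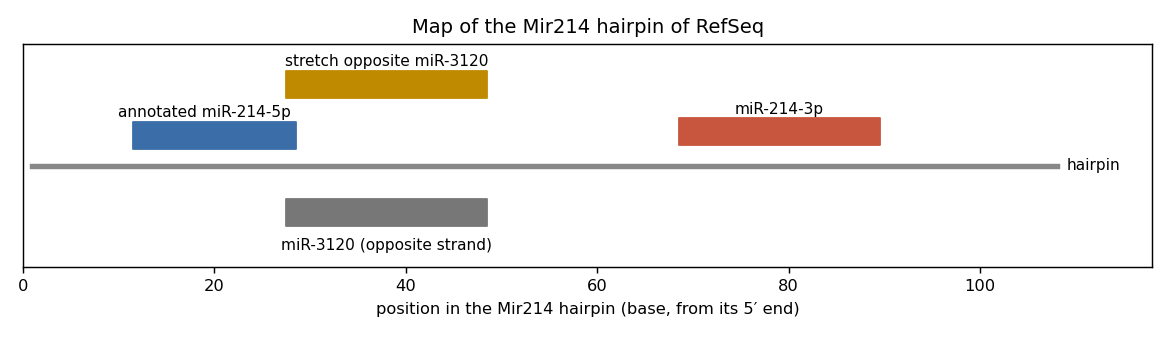
Map of the Mir214 hairpin of RefSeq, with position in bases from its 5′ end on the x axis and bars for the annotated arms, the stretch opposite miR-3120 and miR-3120 on the other strand. The annotated 5p arm and the stretch share 1 base, and it is the stretch that pairs with miR-214-3p at 17 of its 21 bases.

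The cluster was abundant in these cultures, and most of it was a single arm. The 4 arms together took 1.58, 1.61 and 1.52% of the mature reads in control samples 1, 2 and 3 and 1.40, 1.47 and 1.22% in 4-NP samples 1, 2 and 3. The mean was 1.57 ± 0.0454% in the controls and 1.36 ± 0.128% after 4-NP (SD, n = 3 each), 13.5% lower, and the groups did not overlap, although the lowest control was only 1.04 times the highest 4-NP sample. miR-199a-3p made up most of the sum, 75.1 ± 1.87% of the 4 arms in the controls and 83.6 ± 1.61% after 4-NP (SD, n = 3 each). Being bulk cultures, the samples cannot tell fewer cells of a type from less RNA per cell. In single samples, miR-199a-3p ranked 6 to 10 among all mature miRNAs, miR-199a-5p 19 to 36, miR-214-3p 54 to 79 and miR-214-5p 405 to 515. Each read stands for a whole mature arm, so these levels need no scaling to length, but ligation and PCR can favour some sequences.

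The groups lay apart for some arms and not for others. In CPM, miR-199a-5p, miR-214-3p and miR-214-5p, 3 of the 4, had every 4-NP sample below every control sample, as 22.6% of the 549 tested miRNAs did, and miR-199a-3p overlapped between the groups. All 4 arms passed the filter on low counts. As the members were proposed with these values known, the count is a description only.

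miR-199a-5p had 3118, 3638 and 2964 CPM in control samples 1, 2 and 3 and 1995, 1728 and 1686 CPM in 4-NP samples 1, 2 and 3. The lowest control was 1.49 times the highest 4-NP sample. The means were 3240 ± 353 and 1803 ± 168 CPM (SD, n = 3 each), 44.3% lower after 4-NP, and the edgeR fit over all miRNAs gave a log2 fold change of -0.86 (standard error 0.10).

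miR-199a-3p, the partner strand of the same hairpin and the more abundant one, had 12110, 11789 and 11503 CPM in the controls and 11583, 12527 and 10048 CPM after 4-NP. The highest and the lowest of the 6 values were both 4-NP samples. With means of 11801 ± 304 and 11386 ± 1251 CPM (SD, n = 3 each) the difference was smaller than the spread within the treated group, and the fitted log2 fold change was -0.08 (standard error 0.10).

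miR-214-3p, the main arm of the second hairpin, had 557, 711 and 768 CPM in the controls and 382, 401 and 449 CPM after 4-NP. The lowest control was 1.24 times the highest 4-NP sample. Means were 678 ± 109 and 411 ± 34.1 CPM (SD, n = 3 each), 39.4% lower, with a fitted log2 fold change of -0.74 (standard error 0.17).

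The annotated miR-214-5p had few reads, 55, 30 and 37 in the controls and 13, 10 and 11 after 4-NP. These are 1.77 ± 0.533 and 0.53 ± 0.050 CPM (SD, n = 3 each), all above the 0.128 to 0.150 CPM that a count of 0 would allow, taken as 3 reads. Every control was above every 4-NP sample and the fitted log2 fold change was -1.76 (standard error 0.34), but this value carries the counting error of 10 to 55 reads and describes an arm shorter than the RNA that was excised.

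**Figure D2:**
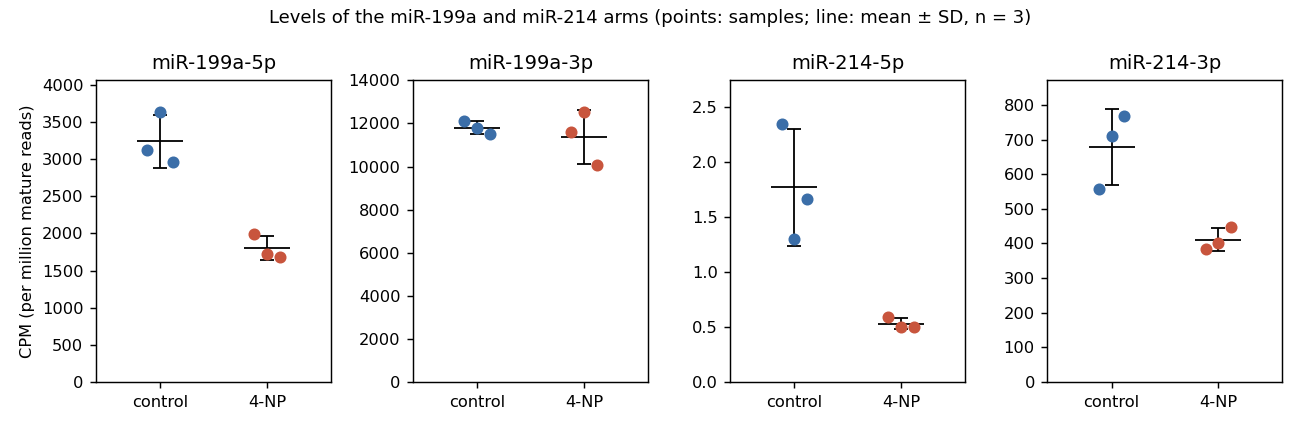
Level of each arm in CPM (y axis, from 0) in the 3 control and 3 4-NP samples, with points for samples and lines for the mean ± SD. Every 4-NP sample is below every control for miR-199a-5p, miR-214-5p and miR-214-3p, while the samples of miR-199a-3p overlap around 11801 and 11386 CPM.

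The ratio of the arms of a hairpin within a sample does not depend on the scaling between samples. For miR-199a it is the ratio of the counted reads, as a gene copy that shares only the 3p sequence could add to the 3p reads alone. For miR-199a there were 3.88, 3.24 and 3.88 reads of the 3p arm per read of the 5p arm in control samples 1, 2 and 3, and 5.80, 7.25 and 5.96 in 4-NP samples 1, 2 and 3. The 3p arm was thus the more abundant in all 6 samples, and the 4-NP samples were all further toward it than the controls. The log2 ratio of 5p to 3p was -1.87 ± 0.15 in the controls and -2.66 ± 0.18 after 4-NP (SD, n = 3 each), a shift of -0.79.

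For miR-214 the annotated arms differed far more, with 237, 547 and 462 reads of 3p per read of 5p in the controls and 651, 804 and 893 after 4-NP. The log2 ratio of 5p to 3p was -8.61 ± 0.64 and -9.60 ± 0.23 (SD, n = 3 each), a shift of -0.99 that rests on the small 5p counts. Without control replicate 1, which had the most 5p reads, the shift was -0.63.

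The same ratio was computed for the 138 hairpins whose arms both averaged 20 or more reads over the samples, of which 136 are not members. That limit is on the mean of all samples, and miR-214 met it only through the controls. After 4-NP its 5p arm had 13, 10 and 11 reads, so its place among these hairpins is a description only. Among all 138, 18 (13.0%) had a 5p share that was lower in every 4-NP sample than in every control, both members among them. In one direction or the other, 45 (32.6%) did not overlap. The shift of the other 136 had a median of 0.06 and a middle 50% range of -0.22 to 0.43. A shift of the 5p share at least as far down as that of miR-199a was seen in 12 of the 136, and one as far as that of miR-214 in 10.

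**Figure D3:**
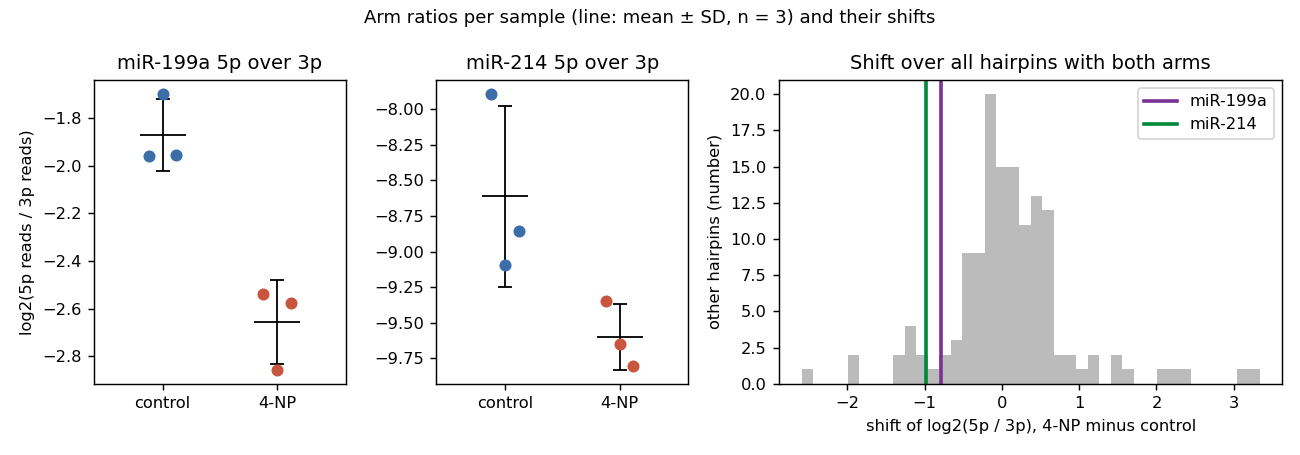
Log2 ratio of 5p to 3p reads for each hairpin by sample (left and middle, points for samples, lines for the mean ± SD, n = 3) and the shift of that ratio, 4-NP minus control, over the other 136 hairpins (right, number of hairpins). The shifts of miR-199a (-0.79) and miR-214 (-0.99) both lie below the middle 50% of the other hairpins. miR-214 met the limit on reads only through the controls.

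The main strands of both hairpins were also set against each other. There were 21.8, 16.6 and 15.0 reads of miR-199a-3p per read of miR-214-3p in the controls, and 30.3, 31.2 and 22.4 after 4-NP. The 4-NP samples lay above the controls, but control replicate 1 and 4-NP replicate 3 were nearly equal. The log2 ratio of miR-214-3p to miR-199a-3p was -4.13 ± 0.28 in the controls and -4.79 ± 0.26 after 4-NP (SD, n = 3 each). Set against miR-199a-5p instead, miR-214-3p kept its proportion within the spread, with log2 ratios of -2.26 ± 0.28 and -2.13 ± 0.24 that overlapped between the groups.

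The table also has precursor rows, named for RNA families, which the selection by name did not use. The rule by which a read went to a precursor row and not to a mature arm is not given in the sources used here, so what part of the hairpins these rows cover is unknown. The mir-199 row had 4324, 4335 and 4024 CPM in the controls and 4395, 4802 and 3753 CPM after 4-NP. Its groups overlapped, like those of miR-199a-3p, with means of 4228 ± 176 and 4317 ± 529 CPM (SD, n = 3 each). It held 0.358 ± 0.00901 reads per read of miR-199a-3p in the controls and 0.379 ± 0.00495 after 4-NP (SD, n = 3 each). In this ratio every 4-NP sample was above every control, though the highest control (0.368) was close to the lowest 4-NP sample (0.373).

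The mir-214 row behaved otherwise. It had 619, 772 and 783 CPM in the controls and 73.7, 78.9 and 87.3 CPM after 4-NP, so that the lowest control was 7.09 times the highest 4-NP sample. The means were 725 ± 91.5 and 80.0 ± 6.83 CPM (SD, n = 3 each), 9.06-fold lower after 4-NP, where miR-214-3p was 1.65-fold lower. Per read of miR-214-3p there were 1.11, 1.09 and 1.02 reads on the precursor row in the controls and 0.193, 0.196 and 0.195 after 4-NP. The proportion was nearly the same in the samples of a group, and the lowest control value was 5.19 times the highest 4-NP value.

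Of the 177 precursor rows, 81 averaged 20 or more reads over the samples. Their median log2 ratio of 4-NP to control was 0.02, with a middle 50% range of -0.52 to 0.32, and 18 of them (22.2%) had every 4-NP sample below every control. The mir-214 row, at -3.18, was the third lowest of the 81, and the mir-199 row, at 0.03, was number 42 from the lowest. No test was made, since the rows are named for the families of the same hairpins and were read in the same contrast. When the precursor row and both arms were added, the sum for miR-214 went from 1405 ± 199.2 to 491 ± 40.9 CPM (SD, n = 3 each), 65.0% lower. That for miR-199a went from 19268 ± 681 to 17506 ± 1831 CPM, with overlap. These sums take the rows as further reads of the same hairpins, which the sources used here do not show.

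**Figure D4:**
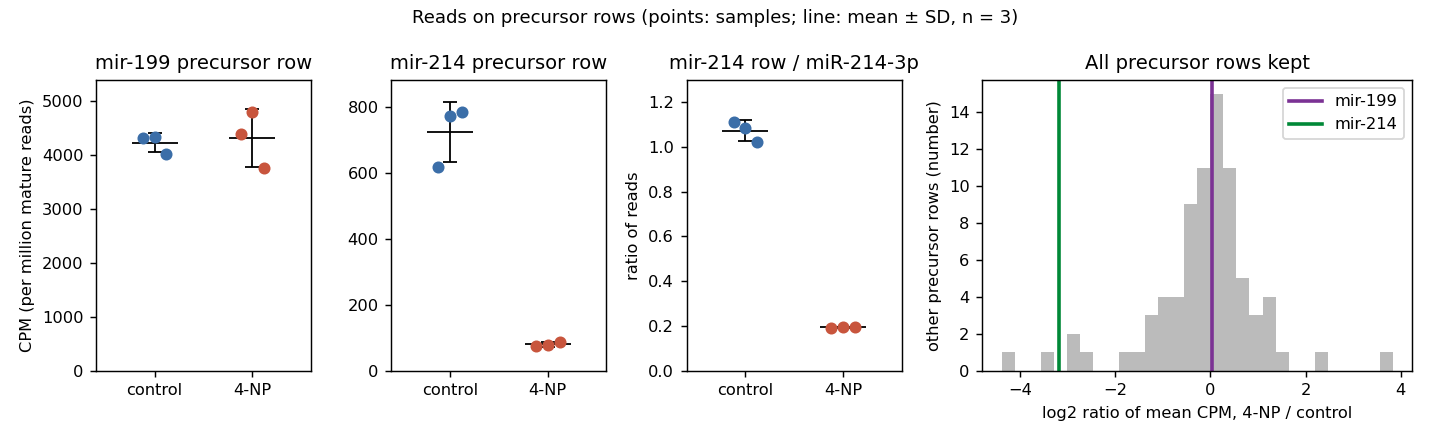
Reads on the mir-199 and mir-214 precursor rows in CPM, the reads on the mir-214 row per read of miR-214-3p (points for samples, lines for the mean ± SD, n = 3), and the log2 ratio of 4-NP to control over the precursor rows kept (right, number of rows). The mir-214 row is 9.06-fold lower after 4-NP and the mir-199 row is near the median of all rows.

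miR-3120, the miRNA annotated opposite miR-214, had 304, 317 and 234 CPM in the controls and 229, 221 and 207 CPM after 4-NP. The groups did not overlap, but the lowest control was only 1.02 times the highest 4-NP sample. Its log2 fold change of -0.40 (standard error 0.14) did not pass the test (adjusted p = 0.0923 in edgeR). It passed without control replicate 3 (adjusted p = 0.0444 in edgeR). Without any other single sample it did not (adjusted p of 0.184 to 0.263 in edgeR). Its reads per read of miR-214-3p were 0.432 ± 0.121 in the controls and 0.537 ± 0.0696 after 4-NP (SD, n = 3 each), with overlap.

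Of the other miRNAs, the 5 whose pattern over the 6 samples was most like the mean log2(CPM + 1) of the 4 arms were miR-665, miR-871-5p, miR-322-5p, miR-881-3p and miR-471-5p, among 485 with a mean of at least 20 reads. Their Pearson's r was 0.996 to 0.998. miR-199a-3p, the most abundant arm, had an r of only 0.337 with that mean, and the other arms had 0.90 to 0.97. The mean pattern is thus mostly that of the other arms. The samples form 2 groups, and r was set mainly by the step between them, so no p is given. On this scale all 5 stepped down further than any arm of the cluster. The most abundant of them, miR-322-5p, a miRNA of the miR-15 and miR-16 seed family, stood at 2195 ± 121 CPM in control samples and at 821 ± 45.3 CPM in 4-NP samples (SD, n = 3 each).

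**Figure D5:**
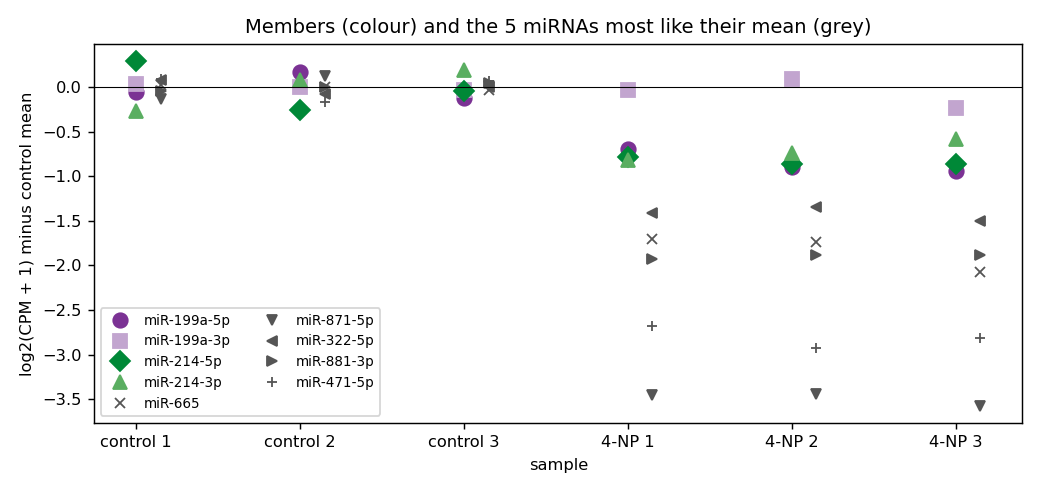
Difference of each sample's log2(CPM + 1) from the control mean (y axis) for the 4 arms (colour) and the 5 miRNAs most like their mean (grey), by sample. miR-199a-3p stays near 0 in all samples, the other 3 arms lie below 0 in the 4-NP samples, and the 5 grey miRNAs lie lower still.

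Lists of miRNAs of cells and processes in which the cluster is studied were read from the same fit. The lists were chosen with earlier results of these data known, so their counts and adjusted p values are a description. Over all 549 miRNAs, edgeR's adjusted p was under 0.05 for 7.47% in the higher direction and for 12.8% in the lower direction. The median log2 fold change was -0.02. In the myoid and smooth muscle list, 2 of 6 tested members were lower, 0 were higher and the median was -0.41. These were miR-143-3p, at 123969 ± 8633 and 89443 ± 4588 CPM (log2 fold change -0.50, adjusted p = 0.0177), and miR-145-3p, the passenger strand of miR-145 (-1.88, adjusted p = 0.000278). The summed level of this list, nearly all of it miR-143-3p, was 120615 to 136288 CPM in the controls and 88402 to 96712 CPM after 4-NP. The other arm, miR-145-5p, had a log2 fold change of -0.33 (adjusted p = 0.159), and miR-490-3p, of smooth muscle, had 1 to 5 reads in any sample.

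Both endothelial miRNAs were lower, miR-126a-3p (log2 fold change -1.02, adjusted p = 0.00419) and miR-126a-5p (-1.16, adjusted p = 0.00628). Their sum was 6325 to 7615 CPM in the controls and 3234 to 3805 CPM after 4-NP. Of the miRNAs of sertoli cells, 0 of 4 passed the test in either direction, with a sum of 1382 to 1897 CPM in the controls and 1213 to 1404 CPM after 4-NP. The median log2 fold change of that list was -0.24. miR-202-5p, the gonadal miRNA that leads it, was present in all 6 samples. It had 805 to 1195 CPM in the controls and 698 to 792 CPM after 4-NP. These groups did not overlap, but the lowest control was only 1.02 times the highest 4-NP sample (log2 fold change -0.48, adjusted p = 0.0858 in edgeR). Whether a change in myoid or endothelial cells had a part in the levels of the cluster was not tested.

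Of the fibrosis list, in which miR-199a and miR-214 are often named, 1 of 6 was higher, miR-34a-5p, a p53 target (log2 fold change 0.65, adjusted p = 0.00232), and 0 were lower, with a median of 0.41. miR-21-5p (log2 fold change 0.00) and miR-29a-3p, miR-29b-3p and miR-29c-3p (0.15 to 0.42) did not pass the test. In the epithelial list, 2 of 5 were lower, miR-200a-3p (-1.14, adjusted p = 0.0198) and miR-429 (-1.12, adjusted p = 0.00807), at a summed level of 10.6 to 12.9 CPM in the controls and 6.19 to 6.91 CPM after 4-NP, and the median was -1.12. The call of miR-200a-3p was lost without control replicate 1 or 2 or 4-NP replicate 2 or 3 (adjusted p of 0.0617 to 0.0731).

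The germ cell and blood lists summed to little beside the sum of the 4 arms. In 4-NP sample 3, however, miR-451-5p of the erythroid list (628 CPM) was above miR-214-3p (449 CPM). In the germ cell list, 4 of 5 tested members were higher, both arms of miR-34b and of miR-34c with log2 fold changes of 0.99 to 1.36, and 0 were lower. The remaining tested member, miR-449a-5p, held most of the reads of the list, at 124 ± 8.54 and 106 ± 13.5 CPM (SD, n = 3 each). Its groups overlapped and it did not pass the test (log2 fold change -0.25, adjusted p = 0.247 in edgeR). The summed level of the list was 150 to 167 CPM in the controls and 162 to 197 CPM after 4-NP. The call of miR-34c-5p was lost without control replicate 2 or any one of the 4-NP samples (adjusted p of 0.0644 to 0.0810 in edgeR). In the erythroid list 1 of 2 was higher, miR-451-5p, whose call was lost without control replicate 1 or 2 or 4-NP replicate 2 or 3 (adjusted p of 0.0689 to 0.123 in edgeR), and the list summed to 11.01 to 40.7 CPM and 59.3 to 630.8 CPM. The myeloid list had 0 of 3 in either direction, and summed to 8.05 to 10.6 CPM and 8.36 to 14.1 CPM.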

How the data were processed

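The small RNA libraries of 3 control and 3 4-NP samples were analysed. RNA of 18 to 30 nt was excised, ligated to adapters, amplified and sequenced by the authors, who deposited raw read counts for 2363 rows. The submitters' processing notes name HISAT2 and DESeq2, and the paper names edgeR; the aligner, build and miRNA database of these counts are not given in the sources used here. The deposited UMI columns (unit other) have no stated meaning and were not used. Another 4 rows are totals that name no gene (3.52 to 5.91% of reads) and were left out.

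CPM was computed from the sum of mature counts. The fit used edgeR 4.0.16 in R 4.3.3 (TMM, filterByExpr, quasi-likelihood F test, no replicate block, Benjamini-Hochberg over 549 miRNAs, common dispersion 0.118), and all adjusted p values come from it. Standard errors came from the fold change and F statistic. Alternatives used DESeq2 1.42.0, limma 3.58.1, other scalings and filters, a replicate block and the omission of each sample. The fit was tested on simulated data with a lower dispersion than the common dispersion here, so that test does not cover the spread of these samples. Hairpins were folded with RNAfold 2.7.2. The limit of 3 reads for a count of 0 covers counting error only, while the standard errors also include the spread between samples.

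The members and lists were chosen with earlier results of these data known. Named miRNAs are the members, their precursor rows and overlapping genes, the 5 most alike by Pearson's r and the list members with an adjusted p under 0.05. miR-145-5p, miR-490-3p, miR-202-5p, miR-449a-5p, miR-21-5p, miR-155-5p and the miR-29 members fall outside this rule and were named after their values were seen. The precursor comparisons were added after the values were seen.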

Additional observations from a re-analysis of the deposited data

How the results depend on the processing

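The log2 fold changes of miR-199a-3p, miR-199a-5p and miR-214-3p kept their sign and moved by less than the spread between replicates under all 15 alternatives each, with ranges of -0.14 to -0.01, -0.92 to -0.75 and -0.84 to -0.62. That of miR-214-5p was -0.85 with limma on log2(CPM + 1), where the added 1 is of the size of its level, and -1.995 to -1.47 with each sample left out. The summed level of the 4 arms had a log2 ratio of -0.27 to -0.14 under its alternatives. The shift of the arm ratio was -0.85 to -0.69 for miR-199a and -1.23 to -0.63 for miR-214 with each sample left out. With the replicate block it was unchanged, -0.79 and -0.99. The replicate numbers did not pair the samples. Deviations from the group means had correlations of -0.22, -0.27 and -0.09 between a control and the 4-NP sample of the same number. Between samples of different numbers these were 0.04 to 0.23. The block gave log2 fold changes of -0.08 for miR-199a-3p, -0.86 for miR-199a-5p, -0.73 for miR-214-3p and -1.72 for miR-214-5p. With it, 26 miRNAs in place of 41 were higher at an adjusted p under 0.05, and miR-143-3p and miR-34c-5p lost their calls (adjusted p = 0.0699 and 0.0529 in edgeR), while the other list members named as passing kept theirs. The precursor row alternatives were chosen after seeing the data: the mir-214 row stayed between -3.28 and -3.12 with each sample left out and was -1.52 with both arms added, and the mir-199 row was -0.05 to 0.12 and -0.14. With a mean of at least 200 reads on both arms, 54 hairpins remained, with miR-199a among them and miR-214 not. The median shift of the hairpins that are not members was then 0.19.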

Other observations

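Among the miRNAs of the lists, miR-155-5p had 2 reads in control replicate 1 and 1 read in 4-NP replicate 2, against 5954 and 5638 in the other controls and 10569 and 12385 in the other 4-NP samples. Neither arm of miR-199a nor either arm of miR-214 dropped in this way in any of the 6 samples.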
